A study of Mus musculus with 3 samples.

Results

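The genes described here are 40 genes of mitosis and the spindle: the kinase CDK1 with its cyclins, the kinases and ubiquitin ligase parts that start and end mitosis, the chromosomal passenger complex, kinetochore and checkpoint proteins, spindle and cytokinesis proteins, and proteins that shape chromosomes. They were taken by symbol from a list, and all 40 were found among the 27998 genes of the deposited tables. Their transcripts were followed across cell types of the adult mouse subventricular zone, a germinal layer beside the lateral ventricle that makes neurons throughout life. The cells came from 5 adult mice on a mixed C57/Bl6(3/4) and 129S1SvlmJ(1/4) background that carried aSMACreERT2::Rosa26-tdTomato and Sox2-GFP (B6;129S-Sox2tm2Hoch/J). Cre-ERT2 was thus driven by the smooth muscle actin promoter, tdTomato reported its activity, and every library, of either gate, was sorted for GFP driven from the Sox2 locus. The tdTomato-positive, GFP-positive gate gave 1 library (1200 sorted cells), and the tdTomato-negative, GFP-positive gate gave 2 (1200 and 6000 sorted cells, here libraries 1 and 2). Which animals went into which library is not stated, so the variation behind every p-value below may be technical. For tests between cell classes it is how class differences vary from library to library, pooled over classes. For the test between gates it is the spread of the 2 tdTomato-negative libraries. The lone tdTomato-positive library is assumed to vary like them.

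As background, CDK1 bound to cyclin A or cyclin B drives a cell from G2 into mitosis. Condensins and topoisomerase II then compact and untangle the chromosomes, kinesins and microtubule-binding proteins build the spindle, and kinetochores attach chromosomes to it. The checkpoint of BUB and MAD proteins holds the anaphase-promoting complex in check until all are attached. CDC20 and UBE2C then let that complex mark cyclin B for destruction, and the central spindle positions the cleavage furrow. Transcripts of most of these genes build up late in the cycle. In the subventricular zone, slowly dividing astrocyte-like stem cells give rise to rapidly dividing transit-amplifying cells and these to neuroblasts, which can still divide, while ependymal cells lining the ventricle are regarded as postmitotic.

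The 3 libraries kept 252 (tdTomato-positive), 256 and 1121 cells (tdTomato-negative 1 and 2), 1629 in all, with medians of 2535, 2639.5 and 2401 unique molecular identifiers (UMIs, one per captured transcript) per cell. The tdTomato-positive library stood apart before any test of the members. The median share of mitochondrial UMIs was 8.27% in it and 3.22% and 3.38% in the others, and 177 of its 252 cells were ependymal-like. Foxj1, a regulator of motile cilia, had a UMI in 53.2% of its cells. Sox2, whose reporter was sorted, had a UMI in 35.3% of them. No cell barcode was shared between the tdTomato-positive library and tdTomato-negative library 1, 1 was shared with library 2, and 2 were shared between the tdTomato-negative libraries. Cells were clustered without the members or other listed cell cycle genes, and a class carries "-like" because its name rests on marker lists. Of 11 clusters, the classes that matter below are transit-amplifying-like (175 cells, with Hes6 among its leading genes), neuroblast-like (463 cells in clusters 3 and 5, with Dlx5 among the leading genes of cluster 5), neuron-like (cluster 4, 335 cells), oligodendrocyte precursor-like (68), astrocyte-like (281) and ependymal-like (235). The name neuron-like rests on Meg3 alone among the leading genes, and the class held a median of 11 neuroblast and 2 neuron markers per cell, as the neuroblast-like class did. Its sums had 17651 CPM (UMIs per 1000000 UMIs) of neuroblast markers against 16205 in the neuroblast-like class, and 6110 against 2961 CPM of neuron markers. Its markers thus do not set it apart as neurons, and the name is used here only for cluster 4. Some genes that vary with the cell cycle stood in no list and were still used by the clustering. Histone Hist1h2ap and 2810417H13Rik were among them, and among the leading genes of the transit-amplifying-like cluster. An unplanned setting kept more histone and cell cycle genes out, which left 13914 of the 13971 clustered genes.

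Mitosis transcripts were gathered in a small share of the cells. Of the 1629 kept cells, 247 (15.2%) held a UMI of at least 5 of the 40 members, and these cells carried 20221 of the 21866 member UMIs (92.5%). By contrast, 493 cells (30.3%) held no member UMI, and the richest cell held all 40. The 247 cells were 144 transit-amplifying-like cells (58.3%), 79 neuroblast-like cells, of which 69 lay in cluster 5, 12 oligodendrocyte precursor-like cells, 4 neuron-like, 4 oligodendrocyte-like, 2 ependymal-like and 2 astrocyte-like cells. Near the limit, 58 cells held exactly 4 members and 23 held exactly 5.

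Transit-amplifying-like cells held several members at once far more often than any other class in both tdTomato-negative libraries. The share of cells with at least 5 members was 90.6% (29 of 32) in library 1 and 81.0% (115 of 142) in library 2, with exact Clopper-Pearson 95% intervals of 75.0 to 98.0% and 73.6 to 87.1%. In neuroblast-like cluster 5 it was 52.4% and 39.7%, and in neuroblast-like cluster 3 it was 8.11% and 2.80%, so cluster 5 was the higher of the pair in each library. Oligodendrocyte precursor-like cells came to 27.8% (5 of 18) and 14.0% (7 of 50), with wide intervals (9.69 to 53.5% and 5.82 to 26.7%). Of 20 oligodendrocyte-like cells in library 2, 4 reached 5 members (95% interval of the share 5.73 to 43.7%). Neuron-like cells came to 3.45% and 0.405%. Astrocyte-like cells held at least 5 members in 0 of 45 cells of library 1 and in 2 of 220 cells of library 2 (0.909%). In the tdTomato-positive library 0 of 252 cells reached 5 members, which allows a share of up to 1.19% by the limit of 3 counts used for zeros and of up to 1.45% by the exact interval. No cell of that library held more than 4.

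The classes also differed in depth, with a median of 7208 UMIs per transit-amplifying-like cell, 3430 in neuroblast-like cluster 5, 3620 in ependymal-like and 2329 in astrocyte-like cells. Each cell was therefore thinned to 1000 UMIs, which left out 59 shallower cells (41 of them tdTomato-positive). The share with at least 5 members was then 56.3% and 53.5% in transit-amplifying-like cells of libraries 1 and 2, 28.6% and 27.4% in neuroblast-like cluster 5, and 0% in neuron-like, astrocyte-like, ependymal-like, oligodendrocyte-like, endothelial-like and microglia-like cells. In oligodendrocyte precursor-like cells it was 2.99% over both libraries. Single member UMIs were common outside these classes in the tdTomato-negative libraries, where 68.9 and 59.1% of astrocyte-like and 91.7 and 84.8% of ependymal-like cells held one or more. In the tdTomato-positive library the shares were 18.8% and 47.5%. The 40 members together reached 416 to 578 CPM in the tdTomato-negative sums of those 2 classes and 10827 and 11568 CPM in those of transit-amplifying-like cells. A single member UMI in a cell is therefore not read here as division.

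**Figure D1:**
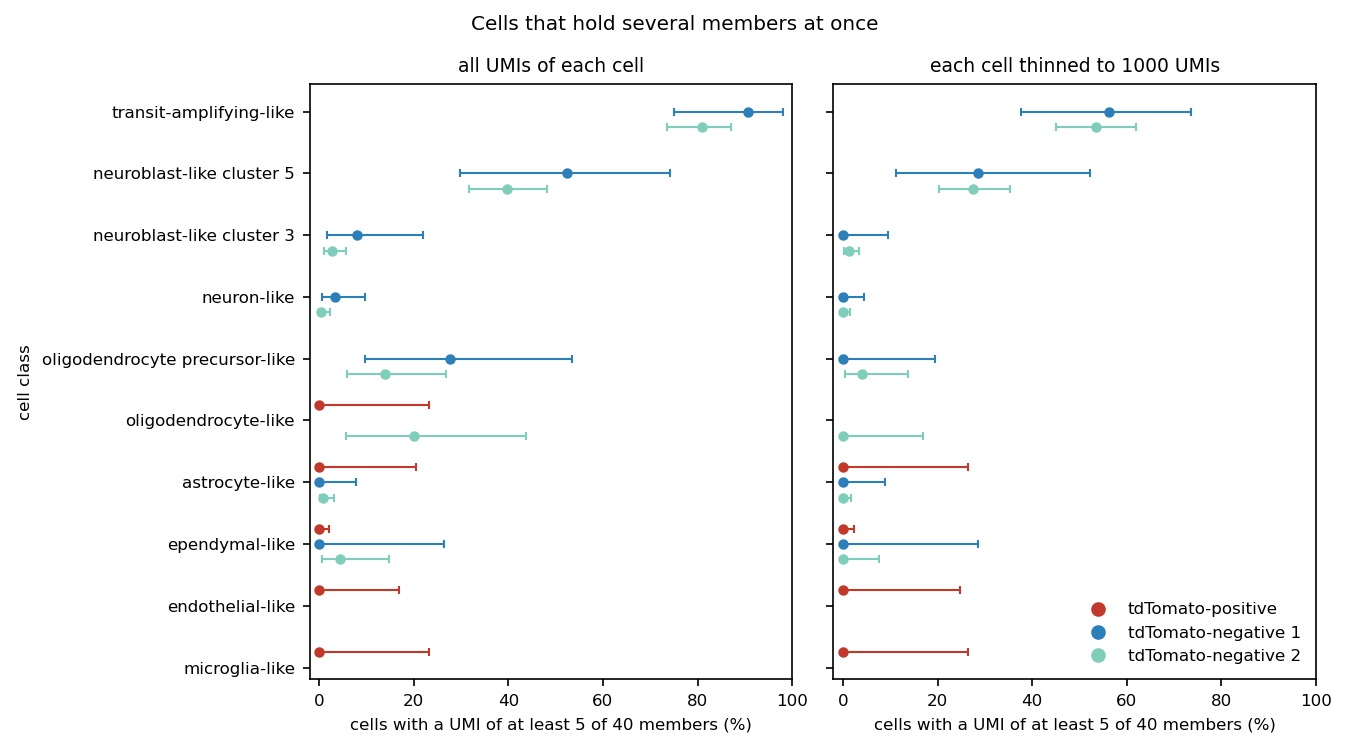
Share of cells with a UMI of at least 5 of the 40 members (x axis, percent) by cell class and library, from all UMIs of each cell on the left and after thinning each cell to 1000 UMIs on the right. Points are shares and bars are exact 95% binomial intervals, which cover counting error only; transit-amplifying-like cells lie at 81.0 and 90.6% on the left and at 53.5 and 56.3% on the right, above neuroblast-like cluster 5 in both panels.

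Levels by role are given next as CPM in the sums of libraries 1 and 2, in that order, for transit-amplifying-like cells first and neuroblast-like cluster 5 second. By UMIs, the CDK1 engine was led by Cks2, a small subunit that docks on the kinase, with 485 and 522 CPM in transit-amplifying-like cells against 387 and 353 in neuroblast-like cluster 5. Ccnb1, the cyclin that carries CDK1 into mitosis, had 430 and 290 CPM in transit-amplifying-like cells against 333 and 177 in cluster 5. In both classes Ccnb1 was higher in library 1. It had no UMI in any of the 235 ependymal-like cells. Cdk1 itself had 282 and 267 CPM in transit-amplifying-like cells, with 288 and 188 in cluster 5, and a single UMI among 281 astrocyte-like cells. Ccna2, the cyclin that acts earlier, from S phase, had 388 and 252 CPM in transit-amplifying-like cells against 180 and 128 in cluster 5, so the 2 classes did not overlap for it, while for Cdk1 they did.

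Among regulators of entry and exit, Ube2c, the ubiquitin-conjugating enzyme of the anaphase-promoting complex, had 825 and 684 CPM in transit-amplifying-like cells against 693 and 546 in cluster 5. In astrocyte-like cells Ube2c had 40.8 and 38.7 CPM, and it had no UMI in the 16 tdTomato-positive ones. Cdca3, a trigger of mitotic entry, had 320 and 303 CPM in transit-amplifying-like cells against 180 and 193 in cluster 5. Its levels in the other classes did not exceed 42.5 CPM in tdTomato-negative sums. The chromosomal passenger complex corrects wrong attachments and later marks the site of cleavage, and consists of the kinase Aurkb with Incenp, Birc5 and Cdca8. Cdca8 had 368 and 428 CPM in transit-amplifying-like cells against 261 and 253 in cluster 5, and Birc5 had 330 and 332 against 261 and 255. All 4 genes of that complex were lower in cluster 5 than in transit-amplifying-like cells within each library, and for Aurkb the gap was small in library 1 (120 against 108 CPM).

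In the kinetochore group Cenpa had no such gap. Cenpa, the histone H3 variant that marks centromeres, had 395 and 417 CPM in transit-amplifying-like cells against 405 and 407 in cluster 5, levels that overlap. Cenpf, a large kinetochore protein that peaks in G2 and mitosis, had 804 and 776 CPM in transit-amplifying-like cells against 558 and 552 in cluster 5. Bub3 was the member seen in the most cells (413). It had 289 and 340 CPM in transit-amplifying-like cells, with 198 and 232 in cluster 5, 78.4 and 68.8 in neuron-like cells, 81.6 and 68.2 in astrocyte-like cells, and 44.5 and 84.7 in ependymal-like cells, with 76.5 in the tdTomato-positive ependymal-like sum. Its lowest transit-amplifying-like sum was still above every sum of those other classes. BUB3 is a checkpoint protein that is known to have a further role in splicing. Over all members, 31 of 40 were higher in transit-amplifying-like cells than in cluster 5 in library 1 and 39 of 40 in library 2. The levels in library 1 rest on 21 cells of cluster 5, and no such count was made over all genes. The 2 classes were not kept apart by every clustering. At resolution 0.5, 68 of the 79 neuroblast-like cells with at least 5 members were transit-amplifying-like, and without Scrublet doublet calls 66 were.

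Among spindle genes, Nusap1, which bundles microtubules near chromosomes, had 553 and 402 CPM in transit-amplifying-like cells against 306 and 331 in cluster 5. Tpx2, which activates Aurora A on the spindle, had 296 and 287 against 207 and 188 CPM. Of the central spindle and cytokinesis group, Prc1, which bundles the antiparallel microtubules between the separating chromosomes, had 313 and 327 against 207 and 253 CPM. Racgap1, a part of the centralspindlin complex, had 279 and 248 against 234 and 180. For each of these 4 genes transit-amplifying-like cells were higher than cluster 5 within each library, and neuron-like cells had at most 41.8 CPM. The chromosome structure group was led by Top2a, the topoisomerase that untangles replicated DNA, with 1196 and 930 CPM in transit-amplifying-like cells against 468 and 596 in cluster 5. Smc4, a condensin subunit, had 629 and 617 against 324 and 437, and it kept 83.6 and 89.4 CPM in neuron-like cells, where Top2a had 26.1 and 9.17.

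**Figure D2:**
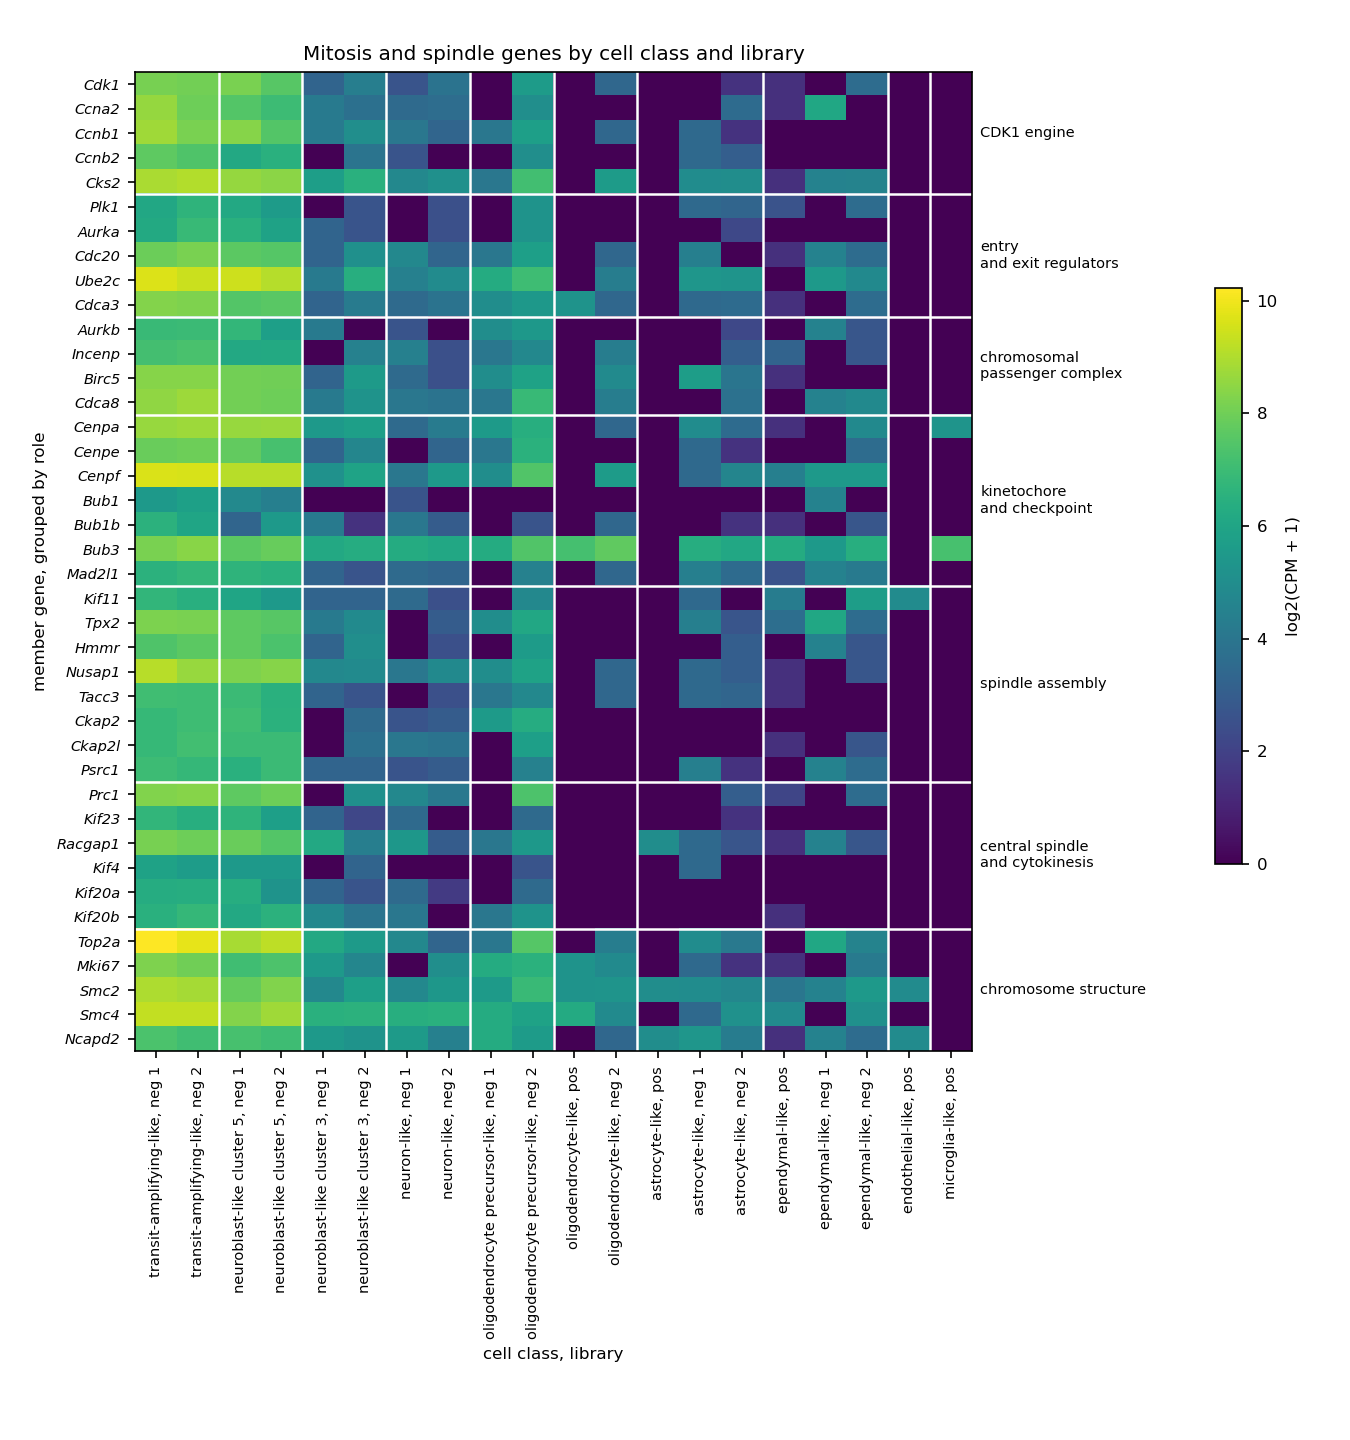
Level of each of the 40 members (rows, grouped by role) in each cell class and library (columns; pos, tdTomato-positive; neg 1 and neg 2, tdTomato-negative libraries 1 and 2), as log2(CPM + 1) in the colour scale. The 4 columns of transit-amplifying-like cells and neuroblast-like cluster 5 are bright in every row, Bub3 and Smc2 are also seen in most other columns, and the dark cells mark sums with no UMI of a member.

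The tests set sums per library and class against each other, with the library as a block (18 sums, edgeR's quasi-likelihood test, Benjamini-Hochberg adjustment at 0.05 over 4387 genes), and the 4 comparisons with astrocyte-like cells share the same astrocyte-like sums. Bub1, a checkpoint kinase gene, was too sparse to be tested, so 39 members entered. All 39 tested members were higher in transit-amplifying-like than in astrocyte-like cells, where 43.2% of all tested genes were called, 24.3% higher and 18.9% lower. Their median log2 fold change was 4.94 (4.82 with 4 genes at their lower bound), against 0.12 over all genes tested. Top2a stood 5.72 ± 0.35 (SE) higher (1316 against 12 UMIs, adjusted p = 5.88e-58). Mki67, whose protein coats mitotic chromosomes, had 358 against 2 UMIs, a log2 ratio of 6.50 with a counting interval of 4.64 to 9.55. Cdk1 had 360 against 1, a log2 ratio of 7.51 (5.02 to 12.81).

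Members without any astrocyte-like UMI can be given only as bounds. They entered the test only through other classes, so their direction against astrocyte-like cells was fixed in advance. Ckap2l, which stabilises spindle microtubules, had 177 UMIs in transit-amplifying-like cells, a log2 ratio of at least 4.90 when the astrocyte-like group is set to 3 UMIs in all. Ckap2, its paralog, had 168 (at least 4.82), Kif20b, a cytokinesis kinesin, had 141 (at least 4.57), and Kif20a, its relative at the midzone, had 107 (at least 4.17). The smallest differences were those of Bub3, Ncapd2 and Mad2l1. Bub3 was higher by 2.29 ± 0.24 (438 against 45 UMIs, adjusted p = 1.43e-19), Ncapd2, a condensin subunit, by 2.50 ± 0.40 (adjusted p = 3.57e-09), and Mad2l1, the checkpoint protein MAD2, by 2.98 ± 0.49 (adjusted p = 1.01e-08). Without library 2, 23 of the 24 members that could be tested were called (median 4.66, 32.7% of all genes called). With cell cycle genes in the clustering 15 of 39 were called (median 1.83, 28.0% of all genes). In that setting 105 of the 144 transit-amplifying-like cells with at least 5 members lay in a cluster left unnamed.

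Within the lineage, 37 of 39 members were higher in transit-amplifying-like than in neuroblast-like cells and none was lower, where 20.5% of all tested genes were called, 11.9% higher and 8.64% lower. The median log2 fold change of members was 1.33, against 0.04 over all genes. Ccnb2, a second B-type cyclin, was higher by 1.89 ± 0.29 (236 against 64 UMIs, adjusted p = 4.87e-09). Ccna2 was higher by 1.86 ± 0.20 (adjusted p = 6.37e-18), and Aurkb by 1.77 ± 0.33 (adjusted p = 1.53e-06). Cenpa differed least among the called, by 0.83 ± 0.16 (adjusted p = 6.6e-06), and Psrc1, a spindle protein, by 0.88 ± 0.30. Ncapd2 had a log2 difference of 0.66 ± 0.27 (adjusted p = 0.0625), and Kif4, a chromosome-bound kinesin, was the other member not called.

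The differences kept their median size in several settings that made fewer calls over all genes. DESeq2 called 8 members (median 1.25, 6.93% of all genes called), 1 of 38 was called without library 1 (median 1.30, 1.79% of all genes) and 16 of 24 without library 2 (median 1.39, 9.25%). With cell cycle genes in the clustering 8 were called (median 1.00, 12.6%). There 105 of 144 transit-amplifying-like and 52 of 79 neuroblast-like cells with at least 5 members lay in a cluster left unnamed. With more histone and cell cycle genes kept out of the clustering, an unplanned setting, 32 of 39 were called (median 0.95, 17.2%). All 39 fitted differences were positive in the fit given above, and 35 of the 39 members were positive in every setting in which they were fitted, the others being Kif4, Ube2c, Cks2 and Ckap2l. Other settings gave a larger median. It was 3.66 with the stricter cell filter (39 called, 24.8% of all genes) and 3.34 without Scrublet doublet calls (38 called, 17.9%). It was 3.71 with genes of odd last identifier digit clustered (37 called, 24.7%) and 3.73 at resolution 0.5 (37 called, 26.2%). In these settings most of the 79 neuroblast-like cells with at least 5 members left that class. With the stricter filter and with the odd-digit genes, 68 lay in a cluster left unnamed. Without Scrublet calls 66 of them, and at resolution 0.5 68 of them, were transit-amplifying-like. Whether this accounts for the larger differences was not tested.

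Within cells that held at least 5 members, a choice made on the members themselves and so a description, the level was much closer. Member CPM in these cells was 12044 and 12160 in transit-amplifying-like cells of libraries 1 and 2, and 11854 and 13692 in cluster 5, so the 2 classes overlapped. The median number of members per such cell was 27.5 and 23, at median depths of 7984 and 5306 UMIs.

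The same cells can be described by the roles their mitosis transcripts came from. Chromosome structure genes gave 22.5% of the member UMIs of transit-amplifying-like cells with at least 5 members and 20.3% in cluster 5. Kinetochore genes gave 18.1% and 19.6%, spindle assembly genes 13.8% and 15.5%, the CDK1 engine 14.3% and 13.1%, and the chromosomal passenger complex 9.33% and 8.59%. These shares pool the libraries, and for the CDK1 engine and the chromosomal passenger complex the libraries disagreed in direction. In library 1 the CDK1 engine gave 15.5% and 15.6%, and the passenger complex 8.34% and 8.95%. In library 2 they gave 13.9% and 12.5%, and 9.63% and 8.51%. The ratio of member UMIs to UMIs of 59 DNA replication genes was higher in cluster 5 in both libraries. It was 1.58 and 1.52 in transit-amplifying-like cells and 1.88 and 2.33 in cluster 5. No test was run on that ratio, which rests on 11 cluster 5 cells in library 1 and 58 in library 2.

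Against astrocyte-like cells, the neuroblast-like class was higher for all 39 tested members, where 43.1% of all tested genes were called, 24.0% higher and 19.1% lower (median 3.74, 3.57 with bounds, against 0.15). Members without an astrocyte-like UMI were Ckap2l (88 against 0 UMIs, a log2 ratio of at least 3.90), Ckap2 (70 against 0, at least 3.57), Kif20b (69 against 0, at least 3.55) and Kif20a (33 against 0, at least 2.49). Their direction was likewise fixed in advance. Bub3 differed least, by 1.19 ± 0.27 (adjusted p = 5.93e-05). Against neuroblast-like cells, in the neuron-like cluster 38 of 39 members were lower and none higher, where 5.08% of all tested genes were called, 4.22% lower and 0.866% higher. Cluster 5 held 4954 of the 5682 member UMIs of the neuroblast-like class over all libraries. The members together had 7628 CPM in cluster 5, 1066 CPM in cluster 3 and 619 CPM in the neuron-like cluster. Hmmr, a spindle-pole protein gene, had 2 against 128 UMIs, a log2 ratio of -4.93 with a counting interval of -7.99 to -3.04. Ccnb2 had 1 against 64 UMIs, a log2 ratio of -4.93 (-10.25 to -2.40), and Kif4 had 0 against 34, a log2 ratio of -2.43 or lower. The direction of Kif4 was fixed in advance. Bub3 was lower by 1.06 ± 0.27 (adjusted p = 0.00356) and Smc4 by 1.51 ± 0.24. Both comparisons turned on the clustering. With the stricter cell filter they called 6 and 0 of 39 members (33.7% and 0.558% of all genes called), with medians of 1.06 and -0.57. DESeq2 called 28 and 17, given here without the share of all genes called. Without library 2 each called 14 of 24 members at medians of 3.03 and -3.16 (28.5% and 1.80% of all genes called), and without library 1 the second called 19 of 38 at a median of -3.06 (0.981%).

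Oligodendrocyte precursor-like cells included a few cells with many members. Their member level was uneven between libraries, at 877 CPM in library 1 (18 cells) and 2563 CPM in library 2 (50 cells). In library 2, 3 of these cells carried 20 members or more and all others fewer than 10, and in library 1 no cell carried more than 7. Against astrocyte-like cells 18 of 39 members were higher and none lower, where 17.2% of all tested genes were called, 8.23% higher and 8.96% lower (median 1.99, 1.87 with bounds, against 0.02). Prc1 had 31 against 4 UMIs and was higher by 3.85 ± 0.64 (adjusted p = 4.69e-08), but all 31 came from library 2. Mki67 had 22 against 2 UMIs, spread as 78.3 and 90.4 CPM over the libraries, a log2 ratio of 4.88 (2.85 to 8.01). Ckap2 had 18 against 0 (at least 4.00 on the log2 scale), Ckap2l 10 against 0 (at least 3.15) and Kif20b 8 against 0 (at least 2.83). The direction of these members without an astrocyte-like UMI was fixed in advance. Bub3, Smc4 and Mad2l1 were not called, with differences of 0.79 ± 0.37, 0.74 ± 0.55 and -0.05 ± 0.97. DESeq2 called 8 members, given here without the share of all genes called. Without library 2 only 24 members and 1665 genes in all could be tested, and no member was called by edgeR (1 at an unadjusted p under 0.05).

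Ependymal-like cells had 1 member called among 39 against the same astrocyte-like sums, where 26.6% of all tested genes were called and 15.9% were called higher. It was Kif11, the motor that pushes spindle poles apart. In ependymal-like cells Kif11 had 11 UMIs in 11 of 177 cells of the tdTomato-positive gate (18.7 CPM), none in 12 cells of library 1, and 9 in library 2 (50.8 CPM). Astrocyte-like cells held 1 Kif11 UMI among 281 cells, in library 1. The fitted difference was 4.20 ± 1.10 (adjusted p = 0.000843), and the log2 ratio of 20 against 1 UMIs was 4.05 with a counting interval of 1.41 to 9.43. Levels in transit-amplifying-like cells were higher, at 107 and 87.5 CPM. Of the 20 ependymal-like cells with Kif11, 4 held at least 3 other members and 7 held no other, so most were without a larger set of members. DESeq2 gave it an adjusted p of 0.0523, and it was too sparse to be tested without library 2. Without the library block 6 members were called, Kif11 higher and Ccnb2, Cks2, Ube2c, Birc5 and Ncapd2 lower. That count is given without the share of all genes called and is not read as a result about the members.

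The other member transcripts of ependymal-like cells were few. The most frequent were Bub3 (62 UMIs), Smc4 (23), Cenpf (22), Kif11 (20) and Smc2 (18). These 5 made up 72.9% of the 129 member UMIs of tdTomato-positive ependymal-like cells, 19.2% of the 26 in library 1 and 46.0% of the 100 in library 2. Ccnb1, Ccnb2, Aurka, Ckap2, Kif4, Kif20a and Kif23 were at 0 UMIs in all 235 cells. The summed level was 219 CPM in tdTomato-positive ependymal-like cells and 578 and 565 CPM in those of the tdTomato-negative libraries. The members' level over all cells of these libraries was 214, 4987 and 4767 CPM in the same order, and its part in that difference was not tested.

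From a wider list of 86 other mitosis genes, 2 are shown whose ependymal-like level exceeded that of the dividing classes, Nuf2 and Pttg1. Nuf2, a subunit of the kinetochore complex that grips microtubules, had 561 CPM in the tdTomato-positive ependymal-like sum and 623 and 565 in those of libraries 1 and 2. It had 113 and 119 CPM in transit-amplifying-like cells, with 90.1 and 57.6 in cluster 5, and 156 (5 UMIs), 30.6 and 16.6 in astrocyte-like cells. The ependymal-like sums thus lay above all others, and 71.8, 75.0 and 73.9% of ependymal-like cells held a Nuf2 UMI, against 50.0 and 40.8% of the deeper transit-amplifying-like cells and 6.67 and 4.09% of tdTomato-negative astrocyte-like cells. Nuf2 was higher in ependymal-like than in astrocyte-like cells by 4.27 ± 0.31 (458 against 17 UMIs, adjusted p = 8.48e-40). Pttg1, securin, which holds separase in check until anaphase, had 360, 489 and 395 CPM in ependymal-like cells, 58.4 and 98.0 in transit-amplifying-like cells, and 249, 133 and 122 in astrocyte-like cells. It was higher than in astrocyte-like cells by 1.55 ± 0.24 (304 against 87 UMIs, adjusted p = 4.67e-09). Nuf2 and Pttg1 were chosen after their values were seen as the pair to show here, and both were called in all 14 fits run on this comparison. Of 57 tested genes of that list, 5 were higher and 1 was lower (Cit, citron kinase, by 1.77 ± 0.70), where 15.9% of all tested genes were called higher and 10.7% lower, so the list as a whole did not exceed the background.

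**Figure D3:**
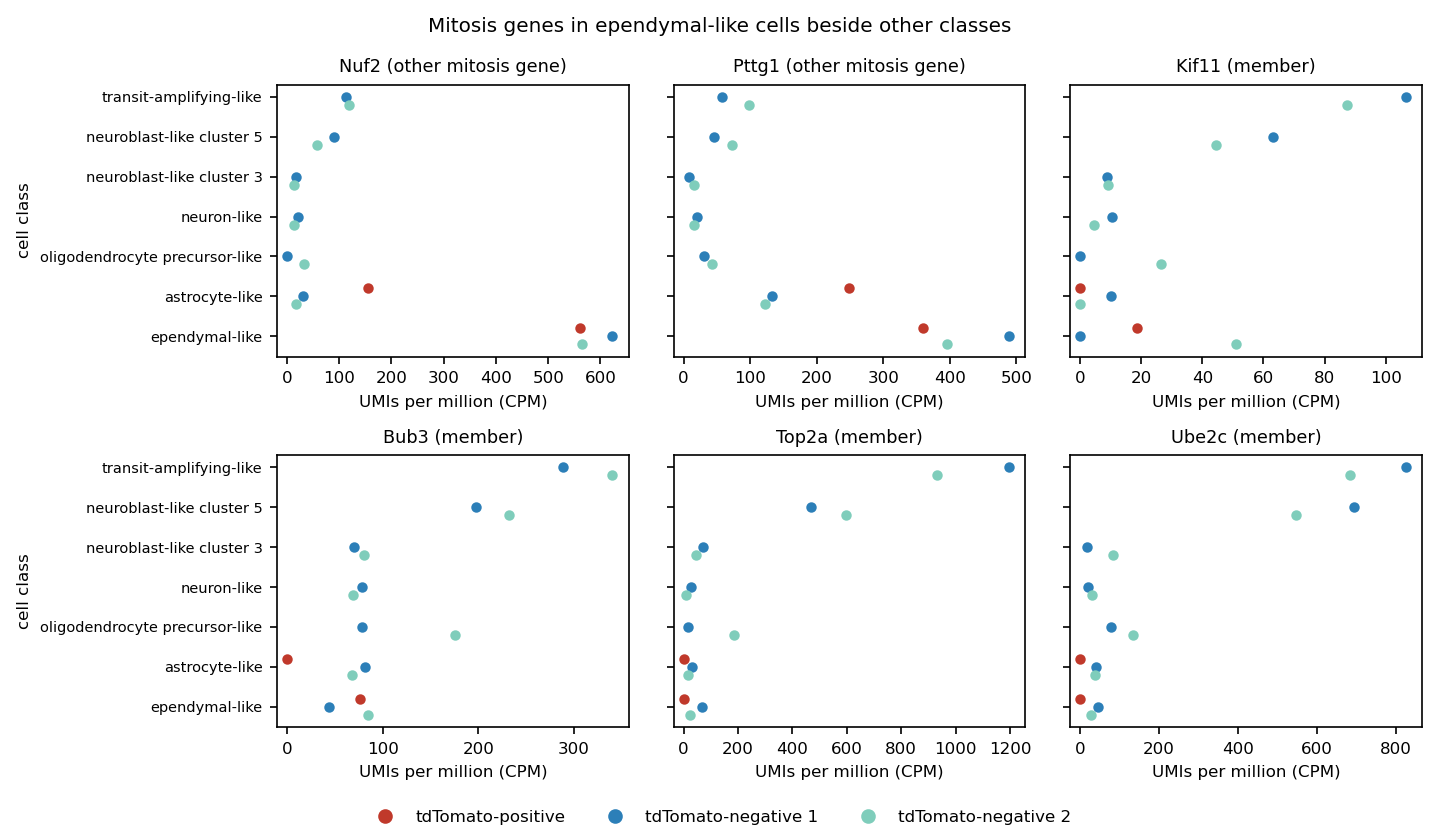
Level in CPM (x axes, linear, each panel on its own scale) of Nuf2, Pttg1, Kif11, Bub3, Top2a and Ube2c by cell class (rows), 1 point per library. Nuf2 and Pttg1 are highest in ependymal-like cells (561 to 623 and 360 to 489 CPM), Kif11 reaches 50.8 CPM there, and Top2a and Ube2c reach at most 66.7 and 44.5 CPM there against 684 to 1196 in transit-amplifying-like cells.

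Between the gates, over sums of all kept cells, all 40 members were lower in the tdTomato-positive library, where 41.8% of 10944 tested genes were called and 19.0% were called lower. The 40 together had 214 CPM in it and 4987 and 4767 CPM in the tdTomato-negative ones. A UMI of 25 members was present in the tdTomato-positive library. The 15 members without one entered the test only through the tdTomato-negative libraries, so their direction was fixed in advance. Among them Top2a had 0 against 1789 UMIs, a log2 ratio of -6.57 or lower, Ube2c had 0 against 1455 (-6.27 or lower) and Ccnb1 had 0 against 600 (-5.00 or lower). The smallest differences were those of Bub3, lower by 1.09 ± 0.34 (56 against 805 UMIs, adjusted p = 0.00539), and Kif11, lower by 1.24 ± 0.47 (12 against 178, adjusted p = 0.0238). The gate has 1 tdTomato-positive library, and that test has 1 residual degree of freedom. In sums over all cells, fewer dividing cells and less of a transcript per cell cannot be told apart. The tdTomato-positive library held 1 transit-amplifying-like and 9 neuroblast-like cells, against 32 and 58 in library 1 and 142 and 396 in library 2. Without these 2 classes, a setting added after the values were seen, 20 members could be tested and 11 were lower, where 26.9% of all 10235 tested genes were called. Bub3 then differed by -0.10 and Kif11 by 0.84, neither called.

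The members did not keep the same company. Of the cells with a UMI of Kif4, 98.6% held at least 3 other members, and the share was 96.7% for Bub1, 96.6% for Kif23, a centralspindlin kinesin, 95.1% for Kif20a and 94.6% for Aurkb. At the other end it was 52.1% for Bub3 (413 cells), 62.5% for Smc4, 70.3% for Cks2, 71.3% for Ube2c and 72.2% for Smc2, a condensin subunit. The median over the 40 members was 87.1%. Genes seen in more cells tended to have less company, and depth differs between cells, so these shares are a description. After thinning to 1000 UMIs, Bub3 had 30.2%, Smc4 51.6% and Aurkb 84.6%.

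The cells with many members were also described by their DNA replication transcripts. In the 247 cells with at least 5 members, DNA replication genes gave a mean of 65.4 UMIs per 10000 of a cell. Weighted by the UMIs of one member at a time, this figure was 73.2 for Smc2, 71.6 for Mad2l1, 71.3 for Top2a, 70.1 for Smc4 and 70.0 for Bub1. It was 47.7 for Cenpa, 48.8 for Cdc20, the activator of the anaphase-promoting complex, 49.2 for Ccnb1, 51.4 for Ube2c and 53.1 for Cenpf. Transcripts of the chromosome structure genes thus sat in cells richer in replication transcripts than did those of Ccnb1, Cdc20, Ube2c and Cenpa. Smc2 ranked highest in each tdTomato-negative library on its own (74.6 and 72.8), and Cdc20 was last in library 1 (40.9) and Cenpa in library 2 (47.7). Across the 40 genes the values of the 2 libraries had a Spearman correlation of 0.83, and those of transit-amplifying-like and neuroblast-like cells had one of 0.74. Genes share cells and depth, so these are descriptions across genes.

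By role, the medians were 70.1 for chromosome structure, 64.8 for the chromosomal passenger complex, 63.0 for kinetochore genes, 60.8 for the central spindle, 59.1 for spindle assembly, 58.1 for the CDK1 engine and 54.9 for entry and exit regulators. The CDK1 engine was split within itself, with Ccna2 at 67.9 and Cdk1 at 65.7 but Ccnb2 at 58.1 and Ccnb1 at 49.2. Kinetochore genes were split as well, from 71.6 for Mad2l1 to 47.7 for Cenpa. All 5 chromosome structure genes lay at 68.1 or above.

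**Figure D4:**
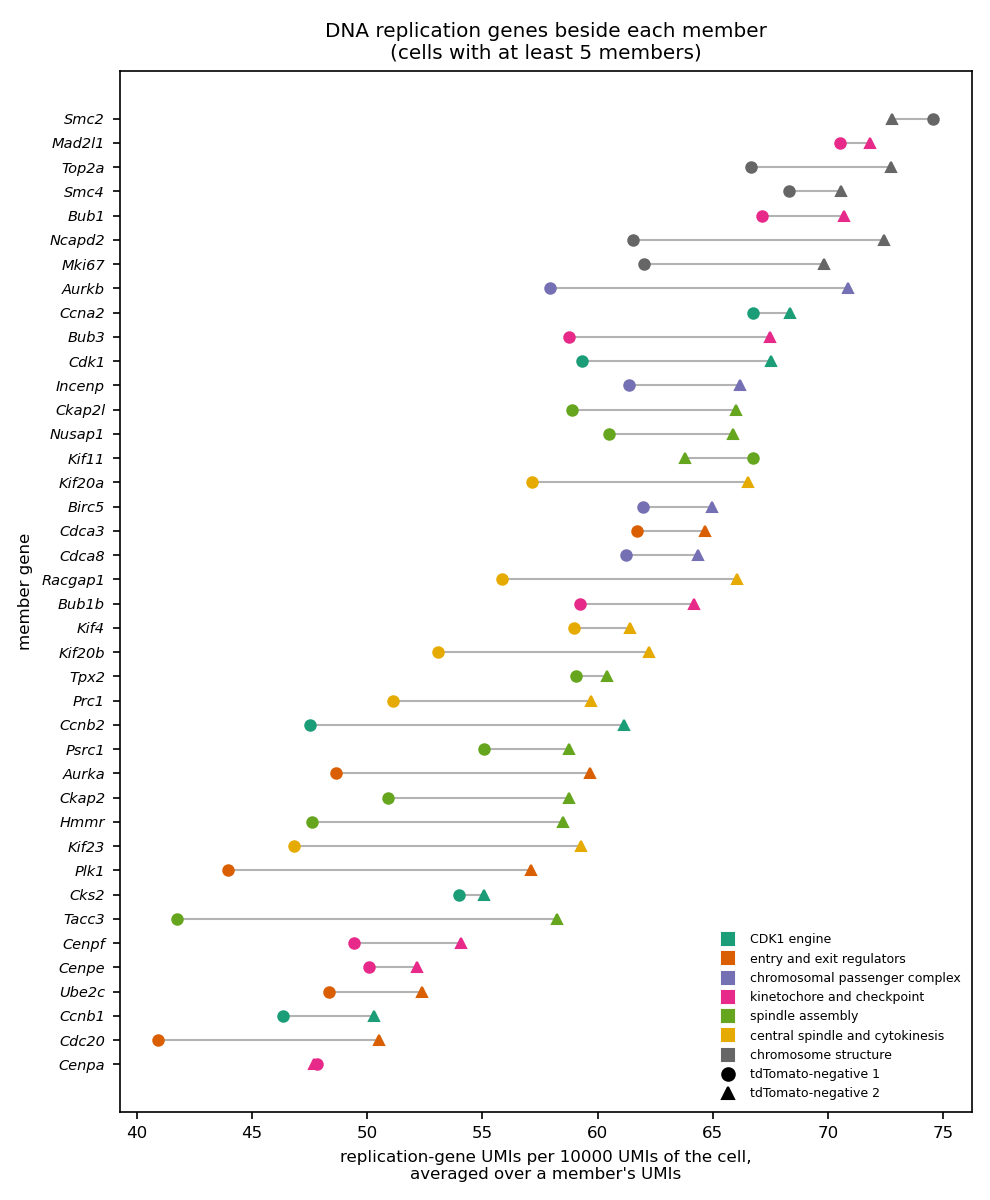
For each member (rows, coloured by role), UMIs of 59 DNA replication genes per 10000 UMIs of a cell (x axis, not starting at 0), averaged over the member's UMIs in cells with at least 5 members. Circles are tdTomato-negative library 1, triangles library 2; Smc2 is highest in both, Cenpa, Cdc20 and Ccnb1 are at the bottom, and library 2 lies to the right of library 1 for most members.

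Many genes that rise late in the cycle are known to share a promoter layout, a cell cycle homology region (CHR), bound through the MuvB core of the DREAM and B-MYB complexes, with CCAAT boxes, bound by NF-Y, upstream of it. The promoters of 5 members are shown for their place in the orders above, Top2a, Cenpf, Ube2c and Smc2 as those with the most UMIs among members whose promoter here holds both motifs, and Bub3 as the one with the least company. Each is 300 bases of RefSeq sequence on GRCm38.p6, 250 before and 50 after the start of transcription, 5′ to 3′ on the strand of the gene. Capitals mark every TTTGAA or TTCGAA (CHR; TTTGAA also as TTCAAA on the other strand) and every CCAAT (also as ATTGG). They lie at chr11:99024140-99024439 (Top2a, minus strand), chr1:189688037-189688336 (Cenpf, minus), chr2:164769679-164769978 (Ube2c, plus), chr4:52438971-52439270 (Smc2, plus) and chr7:131560120-131560419 (Bub3, plus), each spanning the start of its gene.
Top2a: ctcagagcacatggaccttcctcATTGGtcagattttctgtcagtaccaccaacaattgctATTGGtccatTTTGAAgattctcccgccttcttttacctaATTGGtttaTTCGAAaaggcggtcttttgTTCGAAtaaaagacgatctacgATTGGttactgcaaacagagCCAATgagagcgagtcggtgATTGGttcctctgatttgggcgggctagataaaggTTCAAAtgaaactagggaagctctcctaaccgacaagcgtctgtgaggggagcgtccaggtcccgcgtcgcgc
Cenpf: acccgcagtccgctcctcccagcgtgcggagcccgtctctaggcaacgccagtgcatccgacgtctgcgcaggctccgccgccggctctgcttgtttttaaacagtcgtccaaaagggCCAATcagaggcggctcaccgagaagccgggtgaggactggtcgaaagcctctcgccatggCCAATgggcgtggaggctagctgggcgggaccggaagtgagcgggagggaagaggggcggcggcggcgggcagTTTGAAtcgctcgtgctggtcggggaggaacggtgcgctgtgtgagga
Ube2c: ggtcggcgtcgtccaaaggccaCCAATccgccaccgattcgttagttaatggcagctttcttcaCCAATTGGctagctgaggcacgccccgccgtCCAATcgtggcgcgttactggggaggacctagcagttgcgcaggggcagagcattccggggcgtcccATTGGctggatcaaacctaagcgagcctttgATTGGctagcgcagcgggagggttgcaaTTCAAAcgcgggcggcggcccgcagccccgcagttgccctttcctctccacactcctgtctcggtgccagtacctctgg
Smc2: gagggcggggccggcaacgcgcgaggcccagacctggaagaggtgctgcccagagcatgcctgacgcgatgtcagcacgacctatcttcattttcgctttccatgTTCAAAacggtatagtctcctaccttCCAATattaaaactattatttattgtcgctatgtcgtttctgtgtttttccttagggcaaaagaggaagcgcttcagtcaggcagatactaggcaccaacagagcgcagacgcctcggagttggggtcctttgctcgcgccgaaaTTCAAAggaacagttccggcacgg
Bub3: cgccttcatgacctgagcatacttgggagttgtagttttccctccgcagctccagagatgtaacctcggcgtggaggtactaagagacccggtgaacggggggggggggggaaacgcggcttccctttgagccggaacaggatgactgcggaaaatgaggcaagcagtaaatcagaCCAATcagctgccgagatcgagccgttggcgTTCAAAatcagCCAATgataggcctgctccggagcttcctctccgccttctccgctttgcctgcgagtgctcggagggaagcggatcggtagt

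The Top2a promoter held 4 CHR and 6 CCAAT matches, that of Cenpf 1 and 2, that of Ube2c 1 and 6 (2 of them overlapping as a palindrome), that of Smc2 2 and 1, and that of Bub3 1 and 2. Promoters were found for 34 of the 40 members, 37 in all, since some genes have more than one. Ccna2, Incenp, Smc4, Kif20a, Aurkb and Tpx2 were without an entry. A CHR match was present in 30 of the 37 promoters (81.1%), against 19.2% of 32851 promoters of the same length, and a CCAAT match in 32 (86.5%), against 37.4%. Both were present in 29 (78.4%), against 7.52%. In the other lists, both were present in 37.8% of promoters of other mitosis genes, 17.3% of those of DNA replication genes and none of 16 of D cyclins and CDK inhibitors. Nusap1, Birc5, Tacc3 and Mad2l1 matched neither motif, and Cks2, Ccnb1 and Cenpe, a kinetochore motor, matched CCAAT alone. All 7 were higher in transit-amplifying-like than in neuroblast-like cells, but so were 37 of all 39 tested members (11.9% of all tested genes). The 7 were thus not set apart by this. A match is a string of letters, not a measured binding site, and a missing match says only that these letters are not in this window.

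Related genes of the cell cycle moved with the members to different degrees. From neuroblast-like to transit-amplifying-like cells, 44 of 57 tested other mitosis genes, 37 of 45 DNA replication genes and 6 of 12 D cyclins and CDK inhibitors were higher, where 11.9% of all tested genes were called higher. The only other mitosis gene that was lower was Zwint, a kinetochore gene, by 0.59 ± 0.18 (206 against 301 UMIs, adjusted p = 0.0105). Within the mitosis and replication lists the largest differences were those of Cdca5, which keeps sister chromatids together (2.26 ± 0.47), Cenpm, a centromere gene (2.07 ± 0.28), Gins2, of the replication helicase (2.36 ± 0.42), and the G1/S cyclin Ccne2 (2.45 ± 0.61). Among the genes with the most UMIs, Lmnb1, of the nuclear lamina, was higher by 1.00 ± 0.16, Dut, which keeps uracil out of DNA, by 1.39 ± 0.16, Nasp, a histone chaperone, by 0.88 ± 0.17 and Cdk4, a G1 kinase, by 0.88 ± 0.20, while Anapc11, of the anaphase-promoting complex, had a difference of 0.32 ± 0.22 and was not called. Rrm2, which makes deoxynucleotides, was higher by 1.45 ± 0.17 (601 against 201 UMIs), Cdk6, a G1 kinase, by 2.37 ± 0.30 and Ccnd1, a D cyclin, by 2.16 ± 0.38. The inhibitors Cdkn1c and Cdkn1b were lower by 1.07 ± 0.36 and 0.63 ± 0.20. Ccnd2, the D cyclin with the most UMIs (19191), had a difference of -0.10 ± 0.20 and was not called. It was higher than in astrocyte-like cells by 3.81 ± 0.23. In oligodendrocyte precursor-like cells the 2 D cyclins differed in opposite directions, with Ccnd1 higher than in astrocyte-like cells by 3.15 ± 0.33 (151 against 32 UMIs) and Ccnd2 lower by 1.44 ± 0.32.

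In ependymal-like cells a few of these genes were called. Against astrocyte-like cells, 4 of 45 DNA replication genes were higher and none lower, a share below the 15.9% of all tested genes called higher. Chaf1a, a histone chaperone subunit, was higher by 3.43 ± 0.81 (41 against 3 UMIs, a log2 counting interval of 1.86 to 5.84) and Mcm4, a helicase subunit, had 25 against 3 UMIs. Cdkn1a, the inhibitor p21, was higher by 3.38 ± 0.55 (86 against 8 UMIs, adjusted p = 1.19e-08), and Ccnd1 was lower by 2.48 ± 0.81 (4 against 32 UMIs). Between the gates, 66 of 78 other mitosis genes and 48 of 55 DNA replication genes were lower in the single tdTomato-positive library, with 1 residual degree of freedom and 19.0% of all tested genes called lower. Nuf2 and Pttg1 were among the 3 genes of the first list that were higher, by 2.56 ± 0.30 and 2.01 ± 0.30. Also higher were Cdkn1a, by 1.69 ± 0.35, and Cdkn2b, by 3.90 ± 0.90. Of these lists, 33 other mitosis genes and 17 DNA replication genes had no UMI in 1 gate, so their direction was fixed in advance.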

How the data were processed

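Cells of the subventricular zone were sorted and made into 10x 3' libraries, 1 tdTomato-positive and 2 tdTomato-negative, and the authors deposited whole-number UMI counts per gene and cell barcode. Cell Ranger, STAR, Seurat 1.4.0.15 and the builds mm10 and GRCm38.p5 are named per the submitters' processing notes, while the sources used here do not state the counting strand or how barcodes were called as cells. Groups came from the sample labels. Members and lists were chosen with earlier results of these data known.

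From the deposited counts, 1629 cells passed limits of at least 300 detected genes and no more than 25% mitochondrial UMIs. Scanpy 1.11.5 clustered them on 13971 genes that held no listed cell cycle gene (1000 variable genes, 20 components, 15 neighbours, Leiden resolution 1.0), and tests used genes outside that set. Clusters were named from 13 marker lists. Scrublet called 14 doublets, which stayed in. Sums of at least 10 cells per library and class were fitted in edgeR 4.0.16 (R 4.3.3) with library as a block, 7 residual degrees of freedom (1 between the gates) and Benjamini-Hochberg adjustment, and DESeq2 1.42.0 was the alternative. Bounds set a group at 0 to 3 UMIs. Values are given for the 2 members of each role with the most UMIs, the 3 largest and 3 smallest differences per comparison, the 5 most abundant in ependymal-like cells and the 5 with most and least company, and, from each other list, for genes with the most UMIs and the largest called changes. Promoters are shown for the 4 members with the most UMIs that hold the motifs and for those with the least company, where the table has them. On simulated counts, 42.9 to 76.7% of 4-fold changes were recovered, and false calls made up 1.43 to 7.22% of calls. Apart from the changed genes, the simulation gave all sums the same gene means, with a fixed spread and no library effect. The member counts differ from that, so these figures do not carry over to them. Intervals cover counting error only.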

Additional observations from a re-analysis of the deposited data

How the results depend on the processing

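Of 132 recomputed values, 88 stayed the same by direction and threshold (counts within 1.5 times). Numbers of members called are given below, and the cause of each shift was not tested. The share of all genes called shifted too, so a count given without that share is not read as a result about the members. For transit-amplifying-like against neuroblast-like cells it was 20.5% in the fit given above. There it was 6.93% with DESeq2, and 12.6% with cell cycle genes clustered and also without the library block. It was 1.79% without library 1, 9.25% without library 2 and 28.7% without the tdTomato-positive library. For transit-amplifying-like against astrocyte-like cells it was 43.2%, with 29.7% by DESeq2. With DESeq2 they were 8 for transit-amplifying-like against neuroblast-like cells, 17 for neuron-like against neuroblast-like cells, 8 for oligodendrocyte precursor-like cells and 0 for ependymal-like cells (2 at an unadjusted p under 0.05, and 1 by edgeR), each of the last pair against astrocyte-like cells. There Kif11 had a log2 difference of 3.22 with DESeq2 and 4.20 with edgeR. With cell cycle genes in the clustering they were 8 for transit-amplifying-like against neuroblast-like, 15 for transit-amplifying-like against astrocyte-like, 8 for neuroblast-like against astrocyte-like and 0 for neuron-like against neuroblast-like cells (6 at an unadjusted p under 0.05).

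Neuroblast-like against astrocyte-like cells had 6 members called with the stricter cell filter, 16 without Scrublet calls, 8 with the odd-digit genes clustered and 12 at resolution 0.5, where 33.7, 37.6, 38.3 and 43.6% of all genes were called. Neuron-like against neuroblast-like cells had 0, 1 and 0 under the first 3 of these by edgeR (6 and 1 at an unadjusted p under 0.05 for the counts of 0), and no neuron-like class at resolution 0.5. The stricter filter gave 2 for ependymal-like cells.

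Leaving out 1 library in turn gave 1 to 39 for transit-amplifying-like against neuroblast-like, 23 to 40 for transit-amplifying-like against astrocyte-like, 14 to 39 for neuroblast-like against astrocyte-like, 14 to 38 for neuron-like against neuroblast-like, 0 to 2 for ependymal-like and 0 to 19 for oligodendrocyte precursor-like cells. Without library 2 only 24 members could be tested. The lowest count came without library 1 in the first of these and without library 2 in the others. Between the gates no test remained without either tdTomato-negative library, and 11 of 20 were called without transit-amplifying-like and neuroblast-like cells, an alternative chosen after seeing the data.

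Without the library as a replicate block, 32 members were called for transit-amplifying-like against neuroblast-like cells, with 12.6% of all genes called. For each of these classes against astrocyte-like cells 39 were called, with 39.0% of all genes called for transit-amplifying-like cells. The counts were 35 for neuron-like against neuroblast-like cells, 17 for oligodendrocyte precursor-like cells and 6 for ependymal-like cells, of which 5 were lower. Whether the library numbers pair samples across gates is not known.

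The share of tdTomato-negative cells with members (18.7% as a mean of 2 libraries for at least 5) was 31.5% for at least 3, 13.5% for at least 10 and 10.3% after thinning to 1000 UMIs. For transit-amplifying-like cells (85.8%) it was 94.6, 74.6 and 54.9%, for neuroblast-like cells (20.3%) 36.6, 13.1 and 10.6%, and for oligodendrocyte precursor-like cells (20.9%) 38.2, 3.00 and 2.00%. In the tdTomato-positive library 2.78% held at least 3. With cell cycle genes in the clustering it was 53.1% for transit-amplifying-like and 11.8% for neuroblast-like cells. There 105 of 144 transit-amplifying-like and 52 of 79 neuroblast-like cells with at least 5 members lay in a cluster left unnamed. The stricter filter gave 6.07% for neuroblast-like cells. RLE scaling moved the median of all genes from 0.12 to -0.20 for transit-amplifying-like and from 0.15 to -0.11 for neuroblast-like against astrocyte-like cells. Member UMIs are few in ependymal-like, astrocyte-like and oligodendrocyte precursor-like cells, so differences there were often not detectable at this depth.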
